A study of Homo sapiens with 2 samples.

Results

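The regions described here are TP73 ChIP-seq peaks at 5 human genes of glucose uptake and glycolysis control: SLC2A1, SLC2A3, TIGAR, HK2 and PFKFB3. A peak belongs to a gene where its summit lies in the hg19 gene span or within 20 kb of it. This gave 11 of the 18908 peaks in the authors' list, 6 at SLC2A1, 2 at HK2, 2 at PFKFB3, 1 at TIGAR and 0 at SLC2A3. The genes were chosen by their function and, for SLC2A1, by the fold enrichment of a peak in its span that is among the strongest of the list, so peak strength and number are described here without a test. The spans are known to 1 kb, and distances from a gene's ends carry that uncertainty.

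The peaks come from TL-Om1, an established cell line of adult T-cell leukaemia, a cancer of CD4+ T cells caused by the retrovirus HTLV-1. In the TP73 ChIP library, an antibody to TP73 was used on sonicated chromatin of cells grown in RPMI-1640 with 10% serum and fixed with formaldehyde for 10 min. The input library was whole cell extract of the same line. Each group has 1 library, so no value has a replicate error, and nothing below compares cultures. The labels name the extract as background, whereas the peak names carry the text IgG; "control" below means whichever library the caller was given.

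Glucose enters most cells through facilitative transporters of the SLC2A (GLUT) family and is then phosphorylated by hexokinases, which traps it inside. The flow through glycolysis is set in large part at phosphofructokinase-1, whose activator fructose-2,6-bisphosphate is made by PFKFB enzymes and broken down by TIGAR, a phosphatase described as a p53 target. TP73 belongs to the same transcription factor family as p53 and recognises related DNA elements. T cells raise glucose uptake and glycolysis when they are activated.

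RefSeq promoter sequences on GRCh38.p14 were matched for 4 of the 5 genes, with 6 gene starts in all; SLC2A3 was not among them. The promoters of SLC2A1 and TIGAR are shown because a peak summit lay within 1 kb of the start-side end of each span, 0.343 kb inside it at SLC2A1 and 0.341 kb inside it at TIGAR. Each line holds the 250 bases before the gene start, read on the gene's strand. The SLC2A1 bases are chr1:42958869-42959118 on the minus strand, and the TIGAR bases are chr12:4320963-4321212 on the plus strand. Capitals mark CCAAT boxes (CCAAT) and GC boxes (GGGCGG), each searched on both strands; overlapping matches would share capitals.
SLC2A1: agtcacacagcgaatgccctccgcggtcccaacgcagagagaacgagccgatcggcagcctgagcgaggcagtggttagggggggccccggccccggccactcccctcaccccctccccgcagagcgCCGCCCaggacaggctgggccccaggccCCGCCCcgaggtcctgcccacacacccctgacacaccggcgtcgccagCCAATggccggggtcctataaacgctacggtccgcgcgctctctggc
TIGAR: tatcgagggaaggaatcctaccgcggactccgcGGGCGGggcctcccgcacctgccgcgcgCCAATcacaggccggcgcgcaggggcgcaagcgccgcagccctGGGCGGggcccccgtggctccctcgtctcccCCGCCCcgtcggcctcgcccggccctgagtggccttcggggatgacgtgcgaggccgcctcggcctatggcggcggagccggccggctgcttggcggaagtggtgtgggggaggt

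SLC2A1 had 1 CCAAT box and 2 GC boxes in these bases, and TIGAR had 1 CCAAT box and 3 GC boxes. A CCAAT box was found in 32% of the 35116 promoters of the table and a GC box in 42.6%, so neither is rare. The decamer unit of the p53-family response element, allowing 1 mismatch outside its fixed C and G, was absent from both stretches and present in 39.3% of all promoters. It reads the same on both strands. The SLC2A1 stretch was 72.4% G and C and the TIGAR stretch 76.8%, against a median of 58% over all promoters. Promoters of like base content were not compared. Of the 6 promoters, 1 held the decamer, the first start of PFKFB3 by coordinate, with 1 mismatch. No pair of decamers up to 13 bases apart was found in any of the 6, against 1.57% of all promoters. The peaks are placed on hg19 and these bases on GRCh38.p14, so they were not aligned with each other.

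SLC2A1 encodes GLUT1, the main transporter for basal glucose uptake in many cells and also a receptor for HTLV-1. It held 6 peaks in a window of 74 kb, 5 inside the span and 1 beyond its start. The strongest lay on chromosome 1 at 43406508 to 43407258, 18.1 kb inside the gene from its start. Its fold enrichment was 78.7 and its −log10 q-value 428. Fold enrichment is the ratio of the ChIP pileup to the control background at the summit, each with 1 added. The rank of this peak was 11 of 18908 by q-value and by fold, tied with 1 other peak. At 751 bp it was also the widest of the 11, against a median width of 255 bp over the whole list.

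The second peak by strength lay 3785 bp further into the gene from the strongest, at 43402928 to 43403273, and reached a fold of 41.4 with rank 1201. It was 346 bp wide and had a −log10 q-value of 200.2. The third lay on the other side of the strongest, at 43407470 to 43407675, and reached a fold of 12.3 with rank 9048. Its −log10 q-value was 31.6. Its summit was 710 bp from that of the strongest peak, and 211 bp separated the edges of the pair. A peak from the top of the list and one from its middle thus lay less than 1 kb apart. Across the list, 13.3% of peaks had another summit within 1 kb.

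The remaining SLC2A1 peaks were of middle or low strength. The peak at 43408938 to 43409148 had a fold of 8.78. Another at 43424487 to 43424794, at the gene start, had a fold of 11.2, with 28.0 as its −log10 q-value. The peak outside the span, at 43429301 to 43429575, lay 4383 bp beyond the gene start, on the side where RefSeq lists the divergent transcript SLC2A1-DT, and had a fold of 6.10. The peak at the start was thus of ordinary height for this list, while the strongest 2 of the gene lay deep inside it.

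The ChIP reads behind these folds were worked out from the deposited folds and p-values. From the lowest coordinate to the highest, the 6 SLC2A1 summits carried 156, 274, 42, 35, 38 and 24 reads. The strongest summit held 48.2% of the 569 reads summed over the 6. Exact 95% Poisson intervals, which cover counting error only, were 242.5 to 308 reads for the strongest and 132 to 182 for the second. For the third the interval was 30.3 to 56.8 reads. The list ends at 284 reads, and 5 peaks reach that number, which is below the upper end of the strongest summit's interval. Whether 284 reads is a ceiling, which would hold down the strongest folds and their ranks, was not tested.

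**Figure D1:**
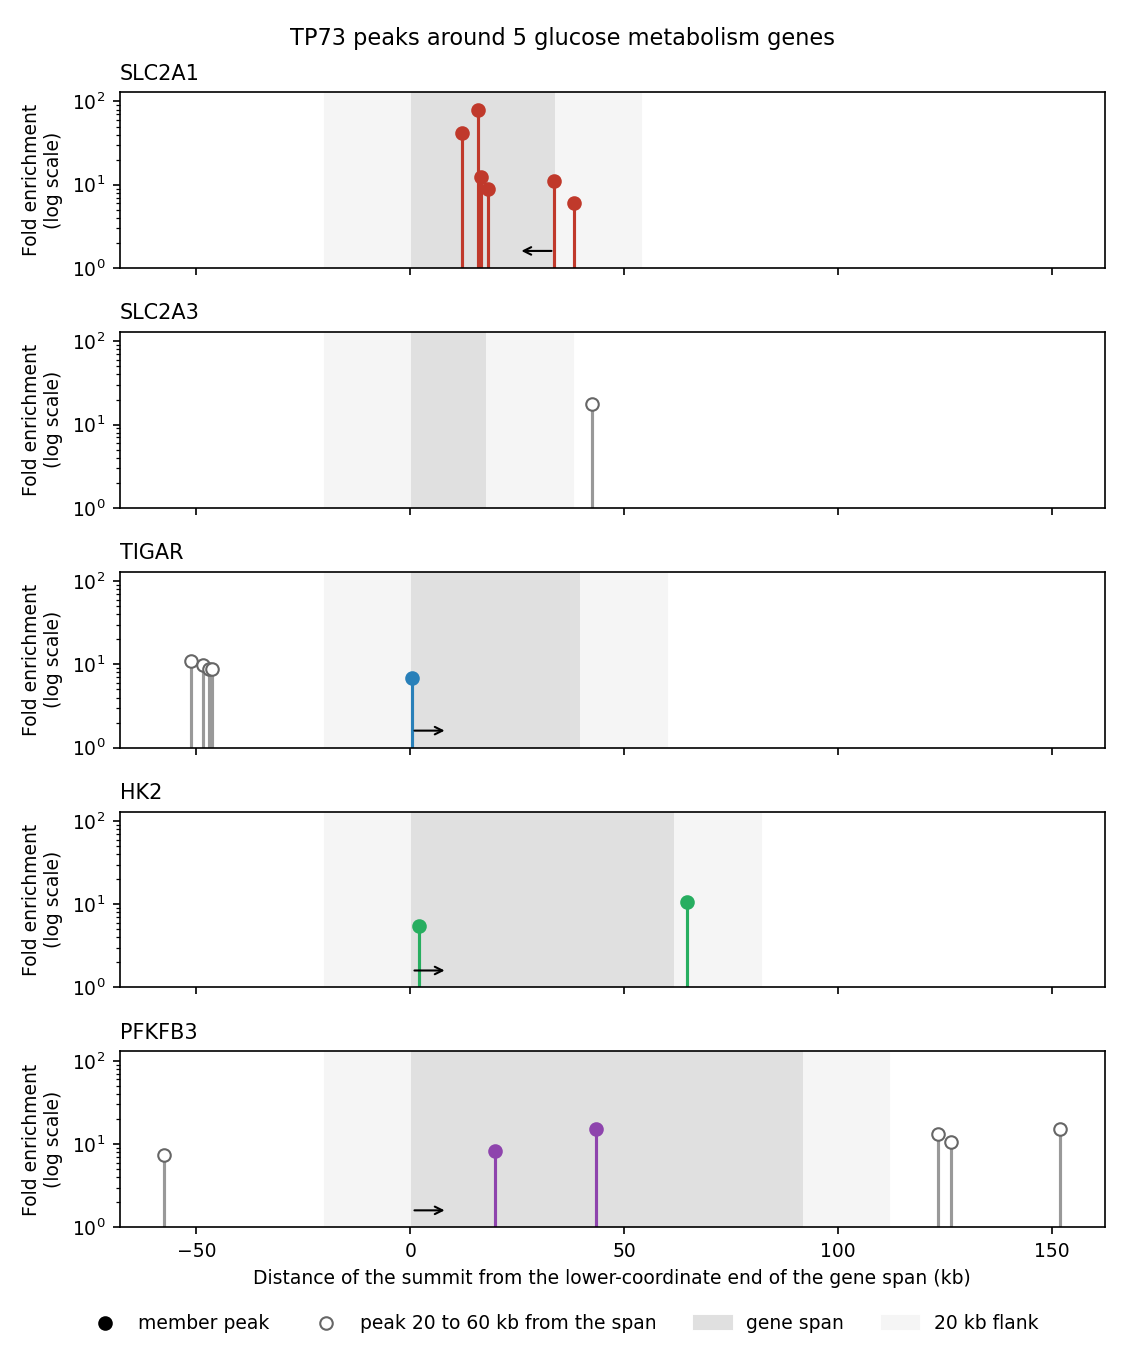
Position and fold enrichment of TP73 peaks at each gene: the horizontal axis gives the distance of the summit from the lower-coordinate end of the gene span in kb, and the vertical axis the fold over the control on a log scale. Filled points are the 11 members, open points are peaks 20 to 60 kb from the span, and arrows mark the gene start and direction for the 4 genes with a strand in the promoter table. SLC2A1 carries 4 summits in the middle of its span, and SLC2A1, TIGAR and HK2 each have a summit near the start.

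SLC2A1 had the most peaks of the 5 genes. For a background, the 22 autosomes were cut into consecutive tiles of 74 kb, starting at each chromosome's first summit. At least 1 peak fell in 28.6% of these tiles, and at least 6 fell in 0.51%, which is 192 of 37628 tiles. Of the 6 summits, 4 lay within 5973 bp. The nearest peaks outside the window were 108 kb from the span on the lower side and 194 kb on the higher side. Tiles include gene-poor stretches and assembly gaps, which lowers these shares, and genes of similar density were not compared. SLC2A1 was also included for a peak in its span, so its count is partly fixed by that choice.

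TIGAR, which lowers fructose-2,6-bisphosphate, had 1 peak in its window of 80 kb. The peak lay on chromosome 12 at 4430244 to 4430459, at the gene start, and was 216 bp wide. Its fold was 6.86 and its −log10 q-value 13.99, which gave rank 16792, so 88.8% of peaks had a q-value as strong or stronger. The summit carried 28 ChIP reads (95% Poisson interval 18.6 to 40.5). The control background used for it was 22 reads in 1 kb, above the genome-wide level of 16.9 per kb, and the higher background lowers the fold that a given number of reads gives. At least 1 peak was found in 30.2% of autosomal tiles of 80 kb, so a single peak in a window of this length is not uncommon.

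The control background used by the caller was above the genome-wide level at most peaks around TIGAR. Control coverage between the peaks was not measured. Among the 116 peaks within 5 Mb of the gene, 12.1% were scored at the genome-wide background, against 51.9% over the whole list. The median background there was 23.3 control reads per kb. The corresponding shares were 33.03% around SLC2A3 on the same chromosome arm, 43.4% around SLC2A1, 45.6% around HK2 and 61.1% around PFKFB3. Folds are therefore taken over unequal backgrounds at these genes, and the part of the background in the order of their folds was not tested. The median fold of peaks within 5 Mb was 10.1 around TIGAR, 11.2 around SLC2A3, 12.3 around both SLC2A1 and PFKFB3, and 14.3 around HK2. The median ChIP reads were 44.5 around TIGAR, 45 around SLC2A3 and SLC2A1, 43 around PFKFB3 and 49 around HK2. The stretches around TIGAR and SLC2A3 overlap and share peaks.

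HK2 encodes hexokinase 2, which phosphorylates glucose and can bind the outer mitochondrial membrane. Its window of 102 kb held 2 peaks, at opposite ends of the gene. The stronger was on chromosome 2 at 75123575 to 75123764, 2628 bp beyond the far end of the span, where 39 ChIP reads gave a fold of 10.6. Its −log10 q-value was 27.4. The other lay at 75061018 to 75061214, 2.15 kb inside the gene from the start-side end of its span. Its fold was 5.47, its −log10 q-value 10.6 and its rank 18472, the weakest of the 11. This summit carried 27 ChIP reads over 4 control reads in 1 fragment length of 142 bp, the highest background among the 11. The 2 summits carried 39 and 27 reads, with 95% Poisson intervals of 27.7 to 53.3 and 17.8 to 39.3 that overlap. The intervals cover counting error only, and a difference between the summits was not tested. At least 2 peaks fell in 16% of autosomal tiles of 102 kb.

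PFKFB3 encodes an enzyme that makes fructose-2,6-bisphosphate with strong kinase activity. RefSeq lists 2 starts for this gene, as it does for HK2, and distances were taken from the start-side end of the span only. Both PFKFB3 peaks lay inside the span on chromosome 10, away from that end. The stronger, at 6229345 to 6229585, was 43.5 kb into the gene and carried 61 ChIP reads. Its fold was 15.1 and its −log10 q-value 51.1, which gave rank 6041. The other, at 6205651 to 6205872, was 19.8 kb into the gene and had a fold of 8.30 with 33 ChIP reads. Both were scored over 3 control reads in 142 bp, so their folds differ through the ChIP reads alone. Their 95% Poisson intervals were 46.7 to 78.4 and 22.7 to 46.3 reads and did not overlap. At least 2 peaks were found in 20.9% of autosomal tiles of 132 kb.

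SLC2A3 encodes GLUT3, a transporter with high affinity for glucose. Its window of 58 kb held 0 of the 18908 peaks. The nearest summit lay 24.5 kb beyond the higher end of the span, at 8113366 to 8113596 on chromosome 12, with a fold of 17.5 and 60 ChIP reads. On the side of the neighbouring gene SLC2A14, a close copy of SLC2A3, the nearest summit was 310 kb away. How reads that match both copies were treated is not given in the sources used here. At least 1 peak fell in 24.1% of autosomal tiles of 58 kb, so an empty window of this length is the common case. No peak of the list has fewer than 18 ChIP reads at its summit, and enrichment that the caller did not pass would not be in the list.

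**Figure D2:**
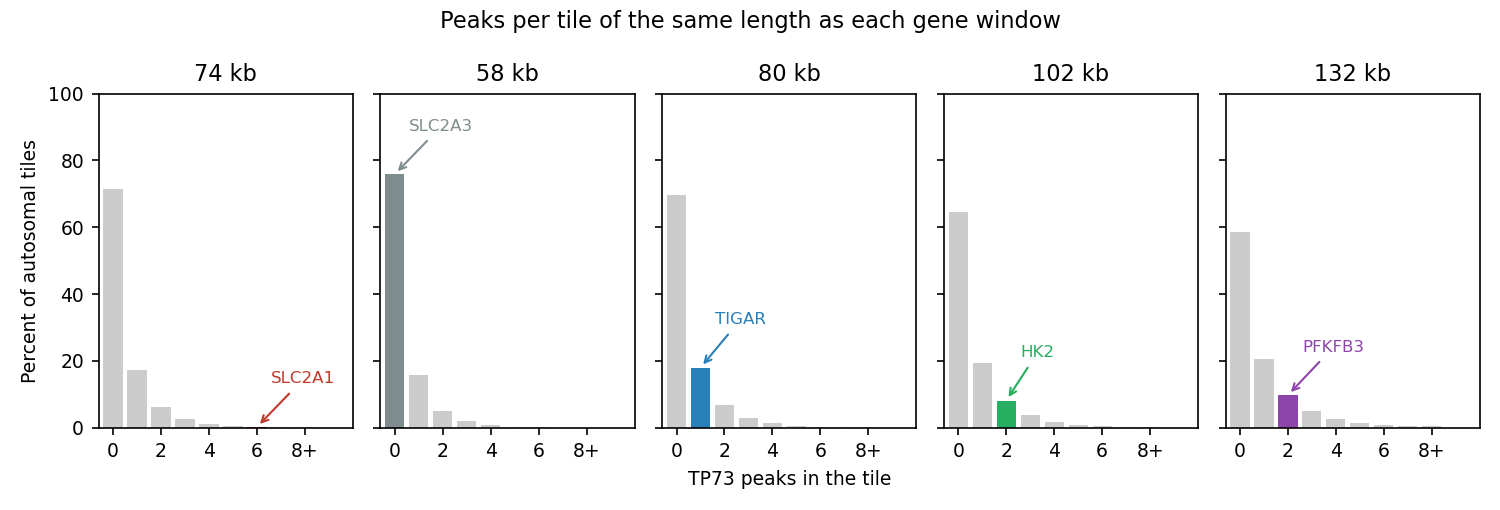
Percent of consecutive autosomal tiles (vertical axis) that hold a given number of TP73 peaks (horizontal axis), with tiles as long as each gene's window. The coloured bar marks the number found at the gene: 6 at SLC2A1 stands in the far tail, 0 at SLC2A3 is the tallest bar, and TIGAR, HK2 and PFKFB3 lie between them. SLC2A1 was included for a peak in its span, so its place is partly fixed by the choice of genes.

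Of the 11 members, 9 lay inside a span, and those outside were 2628 bp and 4383 bp from it, so no member was close to the 20 kb limit. A limit of 50 kb would have given 17 members, with 4 at TIGAR, 4 at PFKFB3 and 1 at SLC2A3. The nearest summit left out was that at SLC2A3, at 24.5 kb, and the next was 31.4 kb beyond the far end of PFKFB3 with a fold of 13.1.

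Apart from the strongest pair at SLC2A1, the members were of middle or low height. The other 9 had folds from 5.47 to 15.1 and carried 24 to 61 ChIP reads. Of these 9, 7 were below the list's median fold of 11.3 and 8 below its median of 43 reads. These counts are partly fixed by leaving out the strongest pair. Of all 11 members, 4 (36.4%) were above the list's median fold, as were 49.9% of the other peaks. Over all 11 members the median fold was 10.6, with quartiles of 7.58 and 13.7, against a median of 11.3 and quartiles of 8.31 and 18.7 over the other 18897 peaks. A fold of at least 20 was reached by 2 of the 11 members (18.2%) and by 22.96% of the other peaks. The median width was 222 bp in members and 255 bp in the other peaks. The strongest pair at SLC2A1 had folds 6.96 and 3.66 times the list's median.

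**Figure D3:**
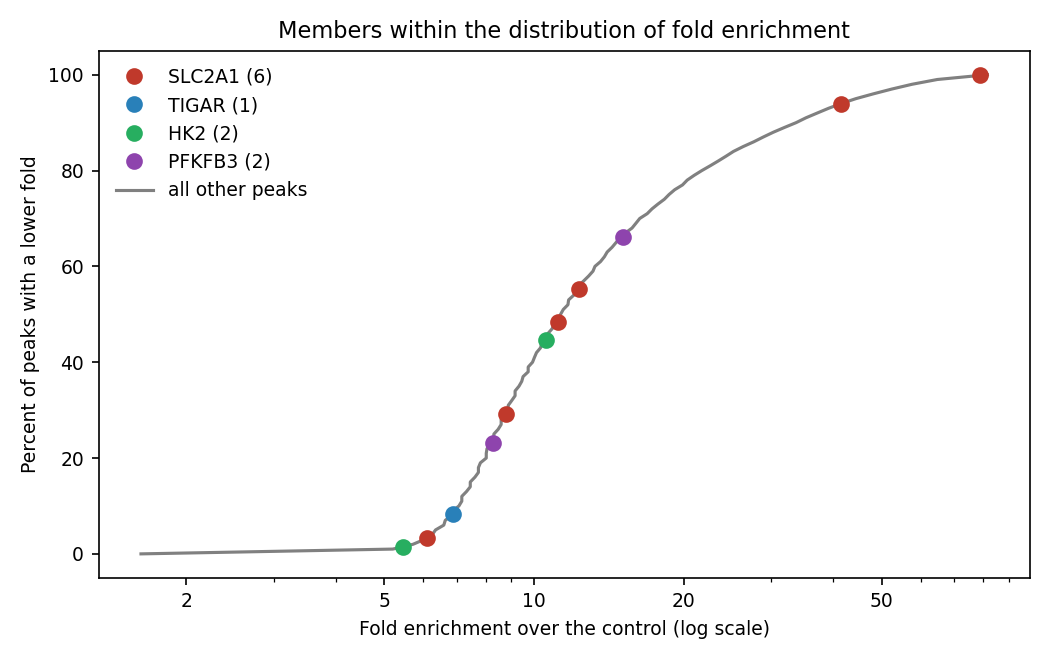
Each point is a member peak placed at its fold enrichment (horizontal axis, log scale) and at the percent of all peaks with a lower fold (vertical axis), coloured by gene, and the grey line is the same distribution for the other peaks. The strongest SLC2A1 peak, with a fold of 78.7, and its neighbour at 41.4 stand near the top, while TIGAR at 6.86 and the start-side peak of HK2 at 5.47 stand near the bottom.

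In number, the 5 windows together held 2.47 peaks per 100 kb, against 0.665 over the 22 autosomes. SLC2A1, included for a peak in its span, gave 6 of these 11 peaks, so the density is partly fixed by the choice of genes. Without SLC2A1 the other 4 windows held 5 peaks in 372 kb, or 1.34 per 100 kb. The 95% Poisson interval of this value was 0.436 to 3.14 per 100 kb. It takes peaks as independent, although 13.3% of all peaks had another summit within 1 kb. It covers counting error only, and the value was not tested against the autosomal 0.665. The autosomal value also covers gene-poor stretches and assembly gaps, which lower it.

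The control background stood at the genome-wide level at 3 of the 11 members (27.3%), all at SLC2A1, and at 51.95% of the other peaks. The median was 21.1 control reads per kb at the members and 16.9 at the other peaks. The genome-wide level is the lowest background the caller uses, so lower control coverage would not show. The 9 weaker members thus combine modest read numbers with backgrounds from 2.41 to 4 reads per 142 bp.

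**Figure D4:**
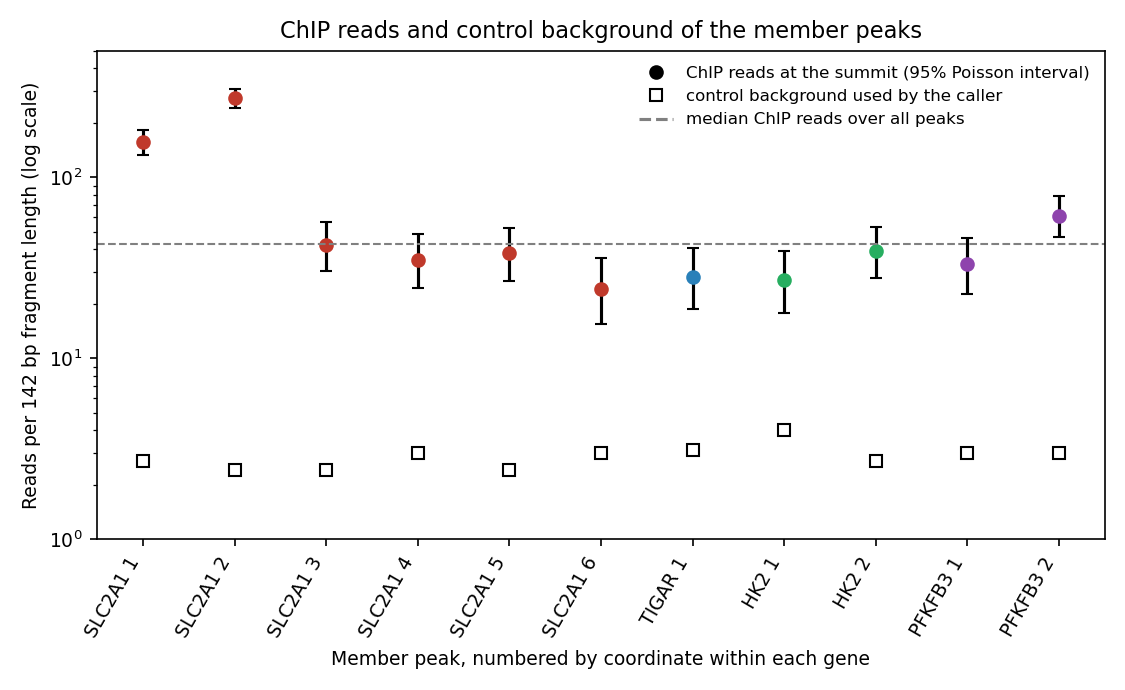
ChIP reads at each member's summit (filled points, with exact 95% Poisson intervals) and the control background used by the caller (open squares), both per fragment length of 142 bp on a log scale, with members numbered by coordinate within each gene. The strongest SLC2A1 summits, with 274 and 156 reads, stand above the rest. Of the other 9 summits, 8 lie below the list's median of 43 reads, which is partly fixed by setting the strongest summits aside. The background ranges from 2.41 to 4.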

How the data were processed

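The authors' peak list of the single ChIP library was used as deposited; Bowtie2, SAMtools and MACS2 and the hg19 build are named in the submitters' processing notes, without parameters. Libraries were single-end reads of 50 bases, per the labels' protocols. The deposited values are a fold (a ratio), −log10 p-values and −log10 q-values, and a score. Members, genes and tests were chosen with earlier results of these data known, so values are described without tests. ChIP reads and control background were solved from fold and p-value with the caller's formulas, taking the commonest background as the lowest possible. The formulas are assumed. All 18908 peaks had a solution (101 had more than 1, none of them a member), and 1 ChIP read was worth 0.975 units of pileup. Of the 8987 peaks outside that fit, 100% gave whole reads within 0.01. On 2000 simulated peaks the reads of 98.2% were recovered. Library totals were not recomputed, and intervals cover counting error only. Members were given in full where strongest of their gene (up to 3 for SLC2A1), and in shorter form otherwise. The CCAAT and GC boxes were chosen after the sequences were seen. Other glycolysis genes and motifs in the peaks themselves were not analysed, since no hg19 annotation or sequence was used here. Scripts ran in Python 3.11.15 with scipy 1.17.1, matplotlib 3.10.9, pandas 2.3.3 and numpy 2.4.6. Alternatives were the distance limit, limits on q-value and fold, merging, peak overlap, ranking and tiles by chromosome.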

Additional observations from a re-analysis of the deposited data

How the results depend on the processing

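The number of members moved most with limits on strength. It was 9 with summits inside the spans and 17 within 50 kb (SLC2A3 1, TIGAR 4, PFKFB3 4); HK2 kept 1 inside its span. A −log10 q-value of at least 50 left 3 members, 2 at SLC2A1, 1 at PFKFB3 and 0 at TIGAR and HK2, or 0.673 peaks per 100 kb. Over the whole list, 32.0% of peaks had a −log10 q-value of at least 51.1, the value of that PFKFB3 peak. At least 50 ChIP reads, added after seeing the data, left the same numbers, 3 in all, 2 at SLC2A1, 1 at PFKFB3, 0 at TIGAR and 0 at HK2, and the same density of 0.673. Of all peaks, 31.9% had at least 61 ChIP reads and 52.5% at least 42. The autosomal density under these limits was not computed, so 0.673 cannot be set against the 0.665 of the unfiltered list. A fold of at least 10 left 6, with 4 at SLC2A1, 1 at HK2, 1 at PFKFB3 and 0 at TIGAR. Among the other peaks of the list, 41% had a fold of about 10.03 or less. Merging within 500 bp, a −log10 q-value of at least 10 and any overlap of the peak with the window each left 11 members, and merging within 1000 bp, added after seeing the data, left 10. The median fold was between 8.30 and 11.2 over the sets tried, the lowest without SLC2A1. By ChIP reads the strongest peaks ranked 37 (SLC2A1), 15767 (TIGAR), 10677 (HK2) and 5906 (PFKFB3); by fold TIGAR ranked 17333 and PFKFB3 6369. On each gene's own chromosome, tiles with at least as many peaks made up 0.891% for SLC2A1 and 17.7% for PFKFB3; tiles with at least 1 peak made up 26.8% for SLC2A3 and 32.8% for TIGAR. No paired analysis was possible because each group has 1 library, and for the same reason no library could be left out.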

Other observations

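Beyond the windows, 4 TP73 peaks lay 46.3 to 51.3 kb before the start of TIGAR, on the side of its neighbour CCND2. That gene encodes the cell-cycle protein cyclin D2. These 4 peaks lay on chromosome 12 between 4378459 and 4383757, with 37 to 56 ChIP reads, each more than the 28 reads at the TIGAR start. Their folds, from 8.78 to 11.1, were all below the list's median of 11.3. They were picked after the flanks were seen, and the share of stretches of like length with as many peaks was not computed. Which gene they lie in was not determined on hg19.

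Past the far end of the PFKFB3 span, 3 peaks lay 31.4 to 59.9 kb away, with folds from 10.5 to 15.0 and 42 to 53 ChIP reads. Whether these peaks lie in a longer form of the gene was not determined on hg19. On the start side, 1 peak of fold 7.45 lay 57.5 kb away.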
